A study of Mus musculus with 48 samples.

Results

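The expression of 10 genes of the blood-brain barrier and the endothelium was described in the medial prefrontal cortex (mPFC) and the blood of mice. The genes were Cldn5, Ocln and Tjp1 of the tight junction, the adhesion molecule Pecam1, the receptors Flt1, Kdr and Tek, and the transporters Slc2a1, Slco1c1 and Abcb1a. Every probe that the array files name for one of these genes was taken, which gave 15 of the 55681 probes that are not controls, for all 10 genes, out of 34844 gene names on the array. All mice were 17-week-old C57BL/6J females, and they had undergone either ovariectomy (OVX) or a sham operation. After surgery they lived either without stress or under chronic ultra-mild stress (CUMS), a repeating weekly schedule of mild stressors such as cage tilt, soiled bedding, restriction to a small cage and disturbed light. The groups were control mice (sham operation, no stress), CUMS mice (sham operation, stress), OVX mice (ovariectomy, no stress) and OVX+CUMS mice (both), with 6 mice in each, 1 mPFC array and 1 blood array per mouse. All of them, controls included, had been anesthetized with pentobarbital when blood and brain were taken. Ovariectomy removes every ovarian hormone at once, and no group that was given a hormone back was analysed here. The mPFC was dissected whole, so vessels were measured together with neurons and glia, and the blood sample was the cell pellet of heparinized blood, red cells included.

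The endothelium of brain capillaries is sealed by tight junctions, in which the transmembrane proteins claudin-5 and occludin are joined to the cytoskeleton through the scaffold ZO-1. Because little can pass between the cells, nutrients are carried across by transporters, and many drugs are pumped back into the blood by P-glycoprotein. Growth of the vessels is controlled by vascular endothelial growth factor and by the angiopoietins, which act on receptor tyrosine kinases of the endothelial surface. Several of these genes are not restricted to endothelium: Tjp1 is also found in epithelia and astrocytes, Slco1c1 in astrocytes, Slc2a1 in red cell precursors, and Pecam1 in platelets and leukocytes.

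Cldn5, Pecam1, Tek, Tjp1, Slc2a1 and Abcb1a had 1 probe each, Ocln, Kdr and Slco1c1 had 2 probes each, and Flt1 had 3. The probes of Kdr and Slco1c1 are shown because the 2 probes of each gene went different ways in what follows. In mouse genome build mm9, by the array's annotation, the Kdr probe A_51_P316553 lies at chr5:76329309-76329368 and the Kdr probe A_55_P2094469 at chr5:76330395-76330454, both for the minus strand and the same Kdr transcript. The Slco1c1 probe A_55_P2094831 lies at chr6:141518164-141518223 and the probe A_55_P2185832 at chr6:141517875-141517934, both for the plus strand and the same Slco1c1 transcript. On the same build, Cldn5 was measured at chr16:18778046-18778105, Slc2a1 at chr4:118809864-118809923 and Abcb1a at chr5:8748075-8748134 (plus strand), and Flt1 by A_51_P398723 at chr5:148373791-148373850, Ocln by A_51_P486155 at chr13:101268529-101268588, Tjp1 at chr7:72441126-72441185 and Pecam1 at chr11:106540864-106540923 (minus strand). Tek was measured at chr4:94540624-94540683 (plus strand). Whether these positions are coding or not was not given in the sources used here. A stretch of 30 bases of each 60-base probe is printed 5′ to 3′ as the array files give it. Capitals mark a word of 5 bases, GCCCC or GCCTG, that is taken up again beside the covariation of the probes and was chosen after the values were seen.
Kdr A_55_P2094469: tgtcccggctccGCCCCcaactcctggaaa
Kdr A_51_P316553: ctactgtatcctttagaattttaacctata
Slco1c1 A_55_P2094831: GCCTGctttgcttttgactctaagcataac
Slco1c1 A_55_P2185832: cctaagcatggctgtactttttgttttaaa
The stretch of A_55_P2094469 starts at base 21 of the probe, and the other 3 start at base 1. Of the 15 probes, GCCCC was found in A_55_P2094469 alone. GCCTG was found in A_55_P2094831 and, outside the stretch shown, in the Kdr probe A_51_P316553.

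Levels are log2 of the processed signal minus the 75th percentile of the array, so 0 stands for the 75th percentile. Before this shift the 75th percentile was 572 to 689 on mPFC arrays and 54.9 to 192 on blood arrays. In blood the CUMS mice had 54.9 to 105 and the OVX mice 110 to 192, so that in blood the signal before scaling moved with the group. Arrays lay on 3 slides per tissue, each with 8 arrays. Slide 1 held the 6 control mice and 2 CUMS mice, slide 2 held 4 CUMS and 4 OVX mice, and slide 3 held 2 OVX mice and the 6 OVX+CUMS mice. No slide held ovariectomized and sham-operated mice of the same stress, so the OVX effect and the slide can be told apart only in part. Of 20 other endothelial marker genes, each was above background on all 24 mPFC arrays, from Erg (mean processed signal of its brightest probe 31.6) to Egfl7 (20110). In blood, 10 of the 20 were above background on all 24 arrays, among them Vwf (6215), Klf2 (4916), Mcam (3993), Ly6c1 (2867) and Icam2 (2811), 5 were above it on some arrays, and Cdh5, Emcn, Tie1, Ramp2 and Cav1 were above it on 0. The precision of all values is limited by the number of arrays.

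Of the 15 probes, 13 passed the filter on low values in mPFC, and they covered all 10 genes. The exceptions were the Flt1 probe A_52_P405145, which was above background on 6 of 24 mPFC arrays, and the Ocln probe A_55_P2055694, which was above background on 20. In blood, 7 probes passed, namely those of Pecam1, Slc2a1 and Abcb1a, the Flt1 probe A_51_P398723, both Kdr probes and the Slco1c1 probe A_55_P2094831. In blood, Tjp1, both Ocln probes and the Slco1c1 probe A_55_P2185832 were above background on 0 of 24 arrays. Cldn5 was above background on 14 blood arrays, Tek on 6, and the other Flt1 probes on 17 and 2.

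The junction genes set the mPFC apart from blood. Cldn5, which encodes the claudin that closes the barrier to small molecules, had a geometric mean processed signal of 5551 in mPFC and 11.98 in blood. The levels were 2.46, 3.18 and 3.85 (lowest, median and highest of 24 arrays) in mPFC and -4.54, -3.32 and -1.82 in blood, and the ranges did not overlap. The difference was 6.39 ± 0.14 (SE) on the log2 scale (limma, adjusted p = 1.12e-37). Cldn5 was above background on 14 of 24 blood arrays, 1 of the 6 OVX arrays among them, so the size of this difference rests in part on signals near background. Tjp1, which encodes ZO-1, was not well above background in blood and was at least 70.5-fold higher in mPFC (limma, adjusted p = 5.03e-47). Occludin, by the Ocln probe A_51_P486155, was at least 1.76-fold higher in mPFC, where its geometric mean processed signal was 82.1. Each such bound is the mPFC mean over the mean of the lowest signal that was well above background on each blood array, or of the probe's own value where that was higher.

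Of the 13 probes tested between the tissues, 12 differed, 10 of them with higher levels in mPFC, against 96% of 31583 probes over all. The Flt1 probes A_51_P398723 and A_55_P2166282 were 4.29 ± 0.11 and 4.38 ± 0.14 higher in mPFC, Slc2a1 2.47 ± 0.08, Abcb1a 2.27 ± 0.06 and Tek 1.85 ± 0.11 (log2 difference ± SE). Tek was above background on only 6 of 24 blood arrays and the Flt1 probe A_55_P2166282 on 17, so the sizes of these differences rest in part on blood signals near background. Pecam1, which blood cells share with endothelium, had a difference of -3.03 ± 0.05 by level, with geometric mean processed signals of 190 in mPFC and 282 in blood.

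The 2 probes of Kdr, which encodes VEGF receptor 2, ran in opposite directions between the tissues. By A_51_P316553, Kdr was 1.81 ± 0.11 higher in mPFC, with geometric mean processed signals of 687 in mPFC and 35.6 in blood. By A_55_P2094469, the difference was -3.18 ± 0.09, with geometric mean processed signals of 4671 in mPFC and 7675 in blood.

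The 2 probes of Slco1c1, which encodes the thyroxine carrier OATP1C1, were apart as well. The probe A_55_P2185832 was not well above background in blood and was at least 26.3-fold higher in mPFC (limma, adjusted p = 3.58e-49). The probe A_55_P2094831 had geometric mean processed signals of 1961 in mPFC and 385 in blood, and after scaling its levels differed by -0.11 ± 0.08 (limma, adjusted p = 0.177). That value is negative only after scaling by a percentile or by quantiles, since with no scaling between arrays the difference was 2.35, with a shift by the E1A spike-in probes 1.68 and with normexp background correction 0.12. Without scaling every mPFC difference is larger by about the gap between the tissues' 75th percentiles, and Pecam1 and the Kdr probe A_55_P2094469 then still stood lower in mPFC, by -0.57 and -0.72. With normexp, which lifts dim signals, the differences of Tek and of the Ocln probe A_51_P486155 turned to -0.14 and -0.76.

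**Figure D1:**
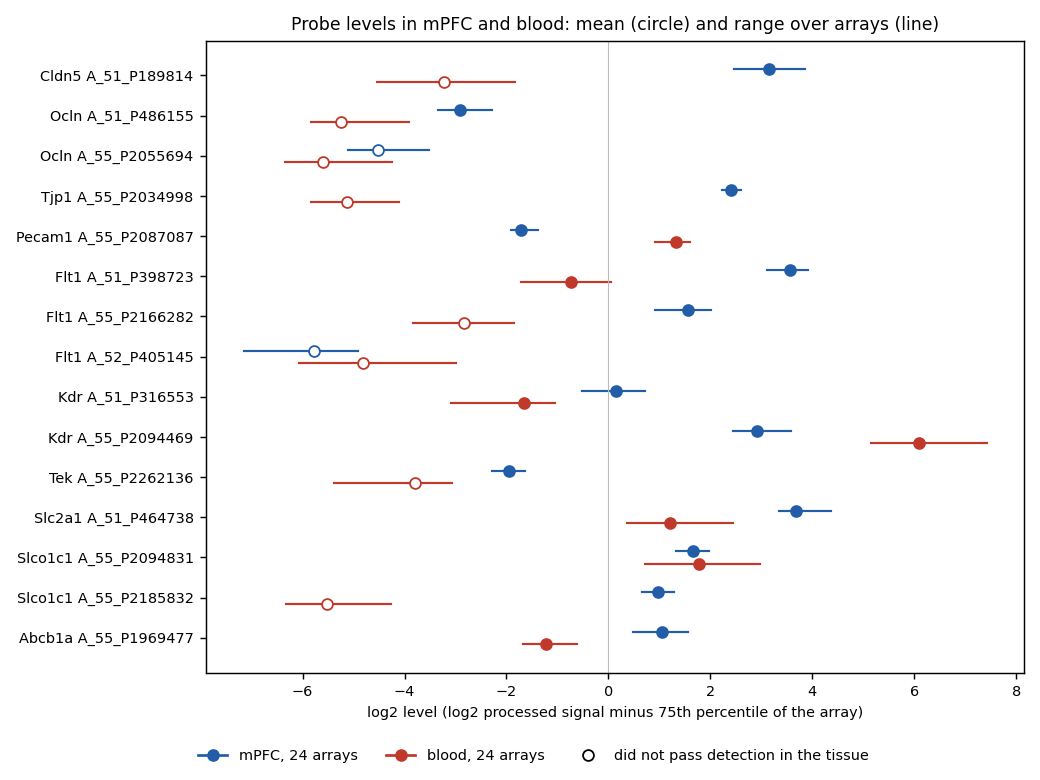
Log2 level (log2 processed signal minus the array's 75th percentile, x axis) of each of the 15 probes (y axis) in mPFC and blood, with the mean as a circle and the range over the 24 arrays of each tissue as a line. Levels of different probes are not on a common scale. Cldn5 and Tjp1 lie far apart between the tissues, and the Kdr probe A_55_P2094469 lies higher in blood (mean 6.09) than in mPFC (mean 2.91).

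The effect of CUMS in mPFC, the mean difference of stressed and unstressed mice over both kinds of surgery, was positive for 12 of the 13 probes and passed the test for none. With limma, 0 of 13 were called after adjustment over 28360 probes, of which 4.21% were called. An unadjusted p under 0.05 was found for 4 of 13, and for 6562 of the 28360. Without moderation of the spread the count of calls was also 0. The number of positive effects over all probes was not counted. Most of the 13 probes also varied together within groups, so their signs are not independent of each other. The median effect of the 13 probes was 0.17 on the log2 scale, and that of all tested probes was 0.01. In tissue RNA, a change in the number of vessel cells and a change in the RNA of each such cell cannot be told apart.

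Among the transporters, Slc2a1, which encodes the glucose transporter GLUT1, had the lowest p for the CUMS effect. Its levels (lowest, median and highest of 6 mice) were 3.35, 3.48 and 3.67 for control, 3.64, 3.78 and 3.90 for CUMS, 3.39, 3.63 and 4.11 for OVX and 3.57, 3.73 and 4.37 for OVX+CUMS mice. The CUMS mice lay above the control mice with a narrow overlap, and the ovariectomized groups overlapped with all others. The CUMS effect was 0.21 ± 0.08 (SE; limma, adjusted p = 0.118). Between CUMS and control mice alone the difference was 0.28 ± 0.11 (limma, adjusted p = 0.0931), and an exact two-sided permutation test of that pair of groups gave p = 0.00433.

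Abcb1a, which encodes P-glycoprotein, had lowest, median and highest levels of 0.48, 0.90 and 0.97 in control mice and 0.99, 1.15 and 1.40 in CUMS mice, and these ranges did not overlap. The OVX mice had 0.64, 1.13 and 1.24 and the OVX+CUMS mice 0.75, 1.14 and 1.56, overlapping with both sham-operated groups. CUMS mice differed from control mice by 0.33 ± 0.13 (exact permutation p = 0.00216, the smallest that 6 against 6 allows; limma, adjusted p = 0.072), so the difference did not pass the test over all probes. The 2 CUMS mice that shared slide 1 with the control mice differed from them by 0.19 ± 0.13 (limma, adjusted p = 0.956). The Slco1c1 probe A_55_P2094831 had group means of 1.54 in control, 1.75 in CUMS, 1.66 in OVX and 1.68 in OVX+CUMS mice, and its CUMS effect was 0.12 ± 0.07 (limma, adjusted p = 0.309).

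The receptor Flt1, a VEGF receptor that binds the ligand with high affinity and signals weakly, was measured by 2 detected probes. By A_51_P398723 the lowest, median and highest levels were 3.1, 3.49 and 3.57 for control, 3.40, 3.75 and 3.91 for CUMS, 3.13, 3.58 and 3.66 for OVX and 3.29, 3.53 and 3.83 for OVX+CUMS mice. Most CUMS mice lay above the control mice, and the groups overlapped. The CUMS effect was 0.17 ± 0.07 by this probe and 0.22 ± 0.10 by A_55_P2166282 (limma, adjusted p = 0.179 and 0.164).

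Tek, the receptor of the angiopoietins, had group means between -2.01 and -1.89 with SDs of 0.15 to 0.23, and its CUMS effect was 0.08 ± 0.08 (limma, adjusted p = 0.578). The CUMS effect on Kdr was 0.21 ± 0.11 by A_51_P316553 and -0.11 ± 0.10 by A_55_P2094469, the single negative value among the 13 probes (limma, adjusted p = 0.27 and 0.502).

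Of the junction genes, Cldn5 spread most within groups. Its lowest, median and highest levels were 2.46, 3.02 and 3.11 for control, 2.56, 3.49 and 3.73 for CUMS, 2.72, 3.27 and 3.37 for OVX and 3.01, 3.28 and 3.85 for OVX+CUMS mice. All 4 groups overlapped, and the SD within groups was 0.25 to 0.51. The CUMS effect was 0.26 ± 0.14 with a 95% interval of -0.02 to 0.54 (limma, adjusted p = 0.249).

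The CUMS effect on the Ocln probe A_51_P486155 was 0.20 ± 0.09 (limma, adjusted p = 0.176). Tjp1 had an effect of 0.02 ± 0.04 with a 95% interval of -0.07 to 0.11 (limma, adjusted p = 0.792), the narrowest interval of the 13 probes. Pecam1, an adhesion molecule of endothelial contacts and of blood cells, ran from -1.92 to -1.38 over all mice, with a CUMS effect of 0.07 ± 0.06 (limma, adjusted p = 0.476). None of these effects passed the test after adjustment over all probes.

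Comparing CUMS mice with control mice alone, 0 of the 13 probes were called against 16.8% of all probes. The median difference was 0.23 against 0.03 over all probes. An unadjusted p under 0.05 was found for 6 of the 13, and for 9101 of the 28360. Within slide 1, which held 2 CUMS mice and the 6 control mice, 0 of 13 were called, and 0 of the 28360, and 12 of 13 differences were positive. Within slide 3, which held the 6 OVX+CUMS mice and 2 OVX mice, 6 of 13 differences of stressed from unstressed mice were positive and 7 negative, with a median of -0.01. No probe was called there, of the 13 or of the 28360, and 0 of 13 had an unadjusted p under 0.05 (limma). Within slide 2, OVX mice had lower means than CUMS mice by all 13 probes, with 3 unadjusted p under 0.05. There 0 of 13 were called, and 12 of the 28360 (limma, lowest adjusted p of the 13 = 0.0932 for Tjp1). Unadjusted p over all probes were not counted within slides.

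**Figure D2:**
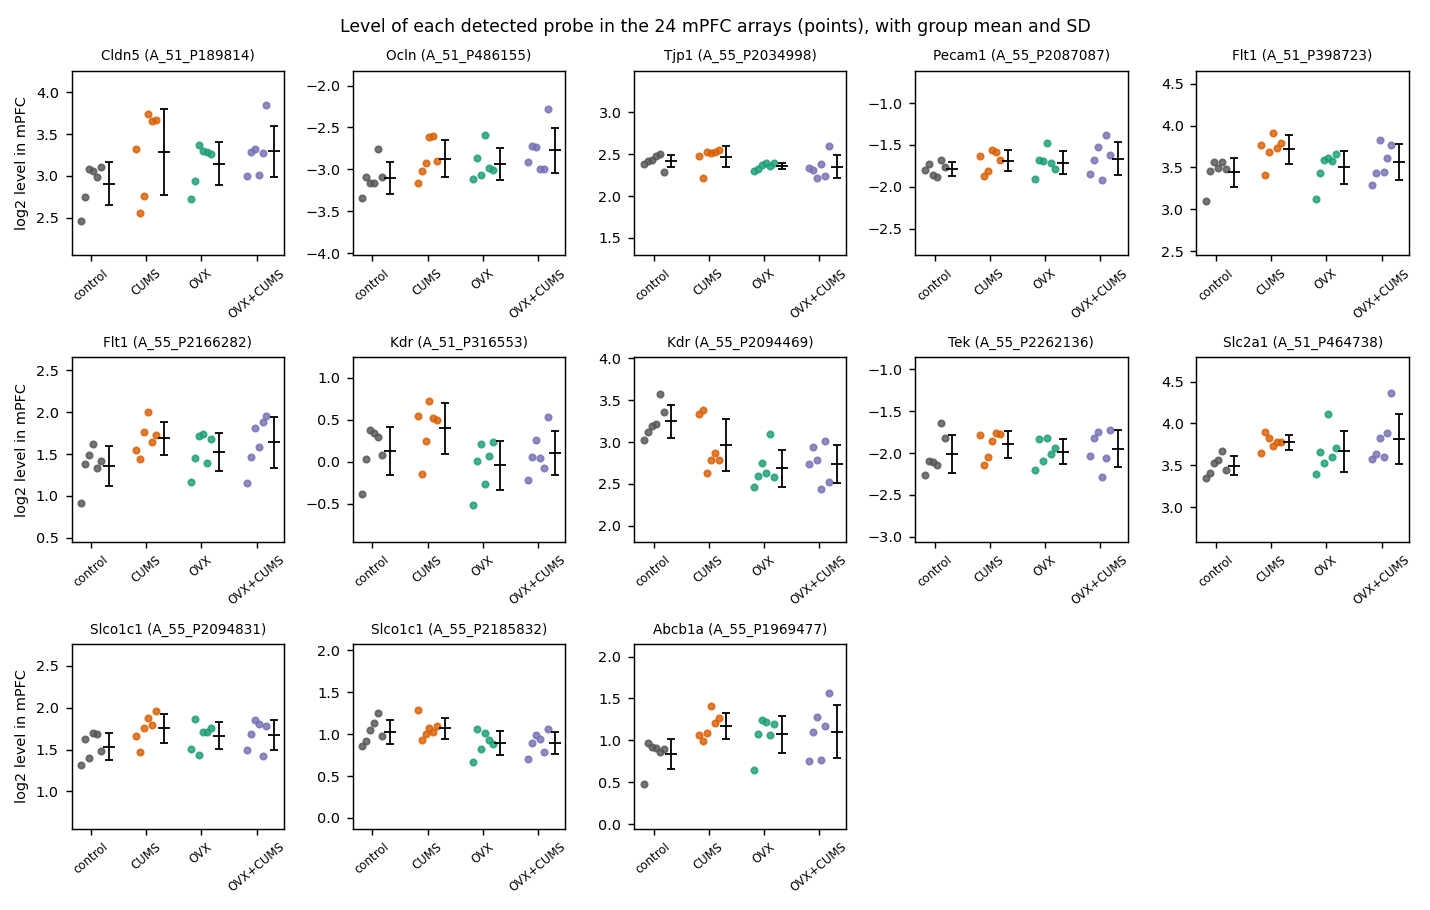
Log2 level of each of the 13 detected probes in mPFC (y axis, 1 panel per probe) by group (x axis), with 1 point per mouse and the group mean and SD in black. All panels span the same number of log2 units around their own mean. The CUMS mice of Abcb1a lie above all control mice, and the control mice of the Kdr probe A_55_P2094469 lie above all OVX+CUMS mice.

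The effect of ovariectomy in mPFC was called for 2 of the 13 probes, both lower after ovariectomy, against 31% of all tested probes. The median effect of the 13 probes was 0.03 and that of all probes 0.04. The Kdr probe A_55_P2094469 had lowest, median and highest levels of 3.02, 3.20 and 3.57 for control, 2.63, 2.83 and 3.38 for CUMS, 2.46, 2.61 and 3.09 for OVX and 2.44, 2.77 and 3.01 for OVX+CUMS mice. The control mice lay highest, without overlap with the OVX+CUMS mice. The OVX effect was -0.39 ± 0.10 (limma, adjusted p = 0.00335), and the call stood when any single array was left out. The levels also followed the slides: the 2 CUMS mice on slide 1 lay at 3.33 and 3.38, among the control mice, and the 4 CUMS mice on slide 2 ran from 2.63 to 2.87, near the 4 OVX mice of that slide (2.46 to 2.75). With the slide as a fixed block in the model the effect was -0.15 (limma, adjusted p = 0.917), and with that block 0 of the 28360 probes were called.

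The other Kdr probe, A_51_P316553, had lowest, median and highest levels of -0.39, 0.18 and 0.38 for control, -0.14, 0.51 and 0.72 for CUMS, -0.52, 0.04 and 0.24 for OVX and -0.21, 0.05 and 0.54 for OVX+CUMS mice. All groups overlapped. Its OVX effect was -0.23 ± 0.11 (limma, adjusted p = 0.124), in the same direction and not called. Within slide 2, OVX mice differed from CUMS mice by -0.63 ± 0.16 by A_51_P316553 and by -0.16 ± 0.07 by A_55_P2094469 (limma, adjusted p = 0.133 and 0.333), a comparison in which surgery and stress differ together.

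The Slco1c1 probe A_55_P2185832 was the other probe called for ovariectomy. Its lowest, median and highest levels were 0.86, 1.01 and 1.25 for control, 0.92, 1.05 and 1.29 for CUMS, 0.67, 0.91 and 1.06 for OVX and 0.70, 0.92 and 1.07 for OVX+CUMS, so the ovariectomized mice lay lower with wide overlap. The OVX effect was -0.15 ± 0.05 (limma, adjusted p = 0.0382). This call was lost when 1 of 11 of the 24 arrays was left out (control replicates 3, 4 and 5, CUMS replicates 1 and 6, OVX replicates 1, 3 and 6, and OVX+CUMS replicates 1, 2 and 5), with effects of -0.15 to -0.13 and a highest adjusted p of 0.0734. Without CUMS replicate 2, in contrast, 4 of the 13 probes were called, and without OVX+CUMS replicate 6, 3. By the other Slco1c1 probe, A_55_P2094831, the OVX effect was 0.03 ± 0.07 (limma, adjusted p = 0.805).

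For the other genes the OVX effect in mPFC did not pass the test. It was -0.09 ± 0.04 for Tjp1 (limma, adjusted p = 0.113), whose lowest, median and highest levels were 2.29, 2.43 and 2.50 in control mice and 2.30, 2.36 and 2.39 in OVX mice. Tjp1 was called lower after ovariectomy with normexp, quantile scaling and the 75th percentile over detected probes, and not with the other settings. Cldn5 had an OVX effect of 0.12 ± 0.14 and Ocln, by A_51_P486155, of 0.13 ± 0.09, Slc2a1 of 0.11 ± 0.08, Abcb1a of 0.08 ± 0.09, Pecam1 of 0.05 ± 0.06 and Tek of -0.01 ± 0.08. OVX mice against control mice gave 1 call among the 13, the Kdr probe A_55_P2094469 with -0.56 ± 0.13 (limma, adjusted p = 0.00297), against 33.5% of all probes. These groups share no slide, and the call was lost with the slide as a block (-0.047, limma, adjusted p = 0.994) and with E1A scaling (-0.59, limma, adjusted p = 0.0941).

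Mice with both ovariectomy and stress differed from control mice in 3 of the 13 probes, against 33.5% of all probes. Slc2a1 was 0.32 ± 0.11 higher (limma, adjusted p = 0.0362; exact permutation p = 0.0173). Occludin had lowest, median and highest levels of -3.35, -3.13 and -2.75 in control mice and -3.00, -2.82 and -2.28 in OVX+CUMS mice, and the groups overlapped. By that probe, A_51_P486155, Ocln was 0.33 ± 0.12 higher (limma, adjusted p = 0.0434; exact permutation p = 0.026). No slide held both control and OVX+CUMS mice, and with the slide as a block none of the 3 calls in this comparison stood, with 0.33 for Slc2a1 and 0.09 for Ocln (limma, adjusted p = 0.963 and 0.99). Both calls were also lost with E1A scaling, the percentile over detected probes and no filter, that of Slc2a1 with quantile scaling, and that of Ocln without moderation of the spread. They depended on single mice as well: without OVX+CUMS replicate 6 the difference was 0.21 for Slc2a1 and 0.23 for Ocln, and neither was called. The Slc2a1 call was also lost without control replicate 1, 2 or 6 or OVX+CUMS replicate 3 or 5, and the Ocln call without control replicate 1, 2, 3, 4 or 6 or OVX+CUMS replicate 2 or 3. The Kdr probe A_55_P2094469 differed by -0.51 ± 0.13 (limma, adjusted p = 0.0059), and by -0.14 with the slide as a block (limma, adjusted p = 0.983). The comparisons with control mice share those mice, so their values are not independent of each other.

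The interaction of OVX and CUMS in mPFC was called for 0 of the 13 probes, against 4.53% of all probes. An unadjusted p under 0.05 was found for 0 of 13, and for 6594 of the 28360 probes. The interaction was negative for 12 of the 13 probes, that is, the difference of stressed from unstressed mice was smaller after ovariectomy. Its median was -0.13 against -0.04 over all probes, and the number of negative values over all probes was not counted. The farthest values were -0.30 ± 0.18 for Abcb1a and 0.33 ± 0.19 for the Kdr probe A_55_P2094469 (limma, adjusted p = 0.321 and 0.294). A probe was called specific to OVX+CUMS mice when the 4 groups differed after adjustment and, by Tukey's comparison, OVX+CUMS mice differed from control mice while OVX and CUMS mice did not. This held for 0 of the 13 probes, against 3.87% of all probes.

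**Figure D3:**
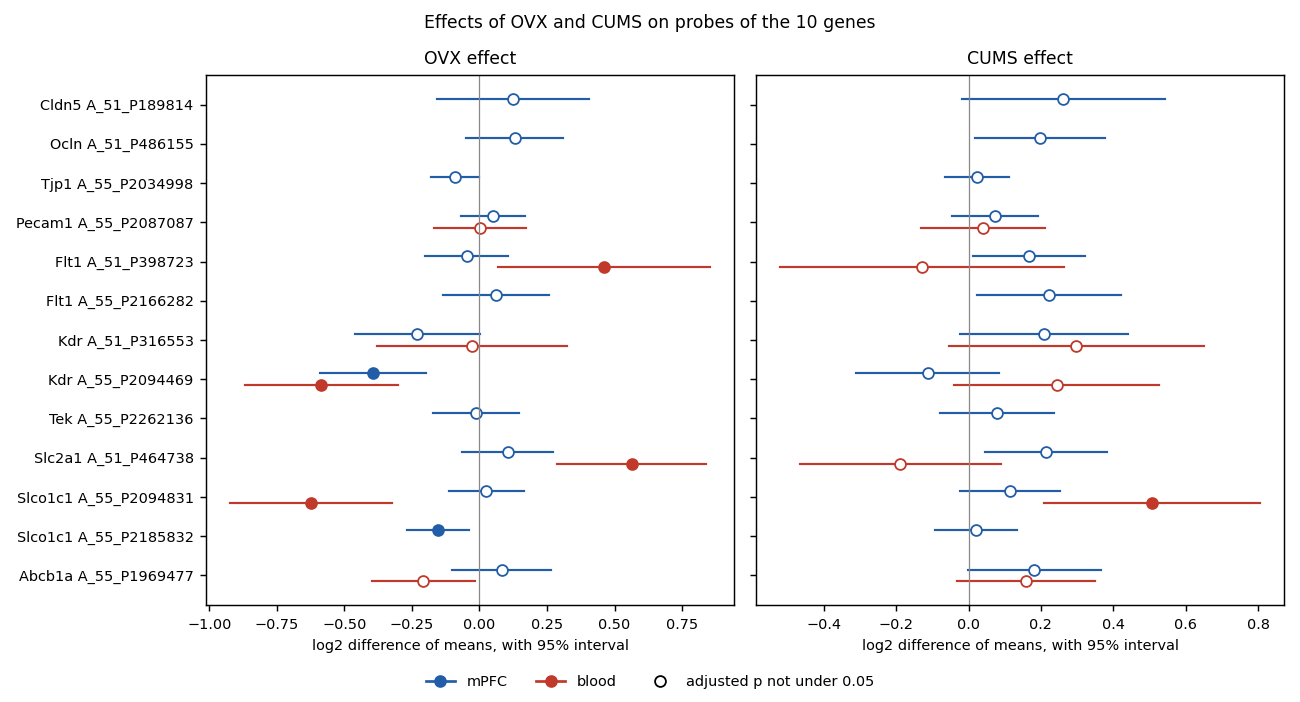
OVX and CUMS effects (log2 difference of means, x axis, with 95% interval) on the probes of the 10 genes (y axis) in mPFC and, where detected, blood, with filled circles at an adjusted p under 0.05. In mPFC the CUMS effects lie on the positive side for 12 of 13 probes with intervals that mostly reach 0, and the OVX effects spread around 0 apart from the Kdr probe A_55_P2094469.

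Other genes of the vessel wall and its surroundings were counted by lists. After CUMS, 1 of 16 detected probes of other junction genes was called higher in mPFC (Magi1, a junction scaffold, 0.19 ± 0.04). Among 23 probes of other endothelial transport genes 1 was called, that of Mfsd2a, a lipid carrier of the barrier, with 0.39 ± 0.07. Of 23 probes of endothelial markers, 2 were called higher, namely Klf2, a flow-responsive transcription factor, with 0.44 ± 0.10 and Eng, a co-receptor of the TGF-beta family, with 0.27 ± 0.07. Eng was also the 1 call among 19 probes of angiogenic ligands and receptors, and none of 19 probes of the Wnt pathway that maintains the barrier was called. The medians ran from 0.03 for transport genes to 0.12 for endothelial markers, against 0.01 over all probes, and these counts stand beside the 4.21% called over all.

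After ovariectomy, 4 of the 16 probes of junction genes were called in mPFC, all higher, with Tjp3 at 0.33 ± 0.11, Magi1 at 0.26 ± 0.04 and Jam3 at 0.20 ± 0.05. Of the 23 transport probes, 5 were called higher, Mfsd2a with 0.25 ± 0.07 among them, and 1 lower, the lactate carrier Slc16a1 with -0.47 ± 0.10. Vegfb, a ligand of Flt1, was higher by 0.23 ± 0.04, and Notch1, a receptor that restrains sprouting, had -0.58 ± 0.21. In the Wnt list the receptor Fzd4 had 0.17 ± 0.06, the co-receptor Lrp5 -0.31 ± 0.08 and the target gene Axin2 -0.70 ± 0.11. Of the 23 endothelial marker probes, Emcn with 0.28 ± 0.07 and Plvap with 0.18 ± 0.04 were higher and Mcam was lower with -0.33 ± 0.05. All these calls are at an adjusted p under 0.05 by limma, and the share called of each of these lists lay below the 31% of all probes.

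Levels of the lists were summed over their detected probes on each array, as linear values relative to the 75th percentile. The sum of the 23 endothelial marker probes was 106.8, 112 and 119 for control (lowest, median and highest), 114, 120 and 124 for CUMS, 102, 112 and 131 for OVX and 112, 121 and 127 for OVX+CUMS mice, with the stressed groups on the higher side and overlap throughout. The erythroid sum, over 6 probes, had its lowest, median and highest values at 82.5, 112 and 174 for control, 114, 135 and 237 for CUMS, 73.5, 89.0 and 244 for OVX and 114, 133 and 184 for OVX+CUMS, and it too was higher in the stressed groups by its median. Globin genes were above background on all 24 mPFC arrays.

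The fibroblast and meningeal sum, over 7 probes, had 32.4, 61.4 and 112 for control, 45.8, 146 and 196 for CUMS, 33.9, 65.1 and 127 for OVX and 34.3, 50.0 and 183 for OVX+CUMS, with the highest median in CUMS mice, and the mural cell sum, over 11 probes, ran from 15.8 to 40.8 over all mice. Erythroid markers gave 0 of 6 calls for CUMS and 0 of 6 for OVX, mural markers 0 of 11 for each, and fibroblast and meningeal markers 0 of 7 for CUMS and 1 of 7 for OVX (Col1a1, lower), beside 4.21% of all probes for CUMS and 31% for OVX. What part blood left in the tissue or the amount of meninges had in the levels of the 10 genes was not tested. The part of the slide can be told from that of ovariectomy only in part.

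In blood, 4 of the 7 detected probes were called for ovariectomy, against 55.1% of all tested probes in blood, and 1 of 7 for CUMS, against 48.5%. The shares are near the background in the first case and below it in the second. Slc2a1 had lowest, median and highest levels of 0.85, 1.17 and 1.23 for control, 0.36, 0.69 and 1.33 for CUMS, 1.34, 1.51 and 1.78 for OVX and 0.99, 1.40 and 2.44 for OVX+CUMS mice. The OVX mice lay above all control mice and all CUMS mice, and the OVX+CUMS mice overlapped with each group. The OVX effect was 0.56 ± 0.13 (limma, adjusted p = 0.00184). Within slide 2, OVX mice were 0.53 ± 0.18 above CUMS mice (limma, adjusted p = 0.0342). Surgery and stress differ together in that comparison, which called 10842 of the 20768 probes. Within slide 1 and within slide 3, stressed mice differed from unstressed mice by -0.55 ± 0.18 and -0.27 ± 0.33 (limma, adjusted p = 0.16 and 0.544).

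The Slco1c1 probe A_55_P2094831 had lowest, median and highest levels in blood of 1.53, 1.56 and 2.61 for control, 2.02, 2.33 and 2.98 for CUMS, 0.72, 1.29 and 1.59 for OVX and 1.25, 1.65 and 2.24 for OVX+CUMS mice. CUMS mice lay highest and OVX mice lowest, without overlap between these groups. The OVX effect was -0.62 ± 0.14 and the CUMS effect 0.51 ± 0.14 (limma, adjusted p = 0.00154 and 0.00827). Within slide 1 and within slide 3 the stressed mice lay higher by 0.71 ± 0.32 and 0.77 ± 0.25 on the log2 scale, and neither passed the test (limma, adjusted p = 0.162 and 0.0997). In each of these comparisons 0 of the 20768 blood probes were called. The processed signal of this probe before scaling ran from 307 to 494 in blood, a narrower range by ratio than that of the 75th percentile, 54.9 to 192, by which it was scaled.

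The Kdr probe A_55_P2094469 had lowest, median and highest levels in blood of 6.09, 6.5 and 6.81 for control, 5.76, 6.18 and 7.43 for CUMS, 5.15, 5.52 and 5.81 for OVX and 5.81, 6.10 and 6.26 for OVX+CUMS mice. The OVX mice lay below all control mice. The OVX effect was -0.58 ± 0.14 (limma, adjusted p = 0.00161), while by A_51_P316553 the OVX effect on Kdr in blood was -0.03 ± 0.17 (limma, adjusted p = 0.897). Flt1, by A_51_P398723, had group means of -0.80 in control, -1.12 in CUMS, -0.53 in OVX and -0.46 in OVX+CUMS mice, with SDs of 0.32 to 0.61, and an OVX effect of 0.46 ± 0.19 (limma, adjusted p = 0.0428). That call was lost when 1 of 16 of the 24 arrays was left out, that is with any array other than control replicates 4 and 5, CUMS replicates 1 and 6, OVX replicates 4 and 6, and OVX+CUMS replicates 1 and 6.

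Pecam1 had group means of 1.29 to 1.35 in blood, and Abcb1a of -1.38 to -1.01, with no call for either. With a shift by the E1A spike-in probes in place of the percentile, the OVX calls of the Kdr probe A_55_P2094469 and the Slco1c1 probe A_55_P2094831 and the CUMS call were lost. With the slide as a block all 4 OVX calls were lost, and 0 of the 20768 blood probes were called for OVX. The 75th percentile itself had medians of 110.1 in control, 90.1 in CUMS, 139 in OVX and 125 in OVX+CUMS blood arrays, lowest in CUMS and highest in OVX mice, so the Slco1c1 probe A_55_P2094831 was highest in the group with the lowest percentile and lowest in the group with the highest. The erythroid sum over 7 probes, scaled the same way, had medians of 20980, 26380, 16290 and 17350 in these groups and ran in the opposite order to the percentile. Levels and sums are both taken relative to that percentile, so their order across the groups is not independent of it. The interaction was called for 0 of the 7 probes in blood, against 1.42% of all probes. An unadjusted p under 0.05 was found for 1 of 7, and for 3573 of the 20768 probes. In blood, 0 of 7 were specific to OVX+CUMS mice, against 2.68%.

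Effects were compared between the tissues for the 7 probes detected in both. The OVX effect differed for 2 of 7, against 36.8% of all probes, and the CUMS effect for 2 of 7, against 48.9%. The 2 probes were the same in both cases, that of Slc2a1 and the Slco1c1 probe A_55_P2094831. For Slc2a1 the OVX effect was -0.46 ± 0.16 lower in mPFC than in blood and the CUMS effect 0.40 ± 0.16 higher (limma, adjusted p = 0.0218 and 0.0346). For Slco1c1 the differences, mPFC minus blood, were 0.65 ± 0.16 for OVX and -0.39 ± 0.16 for CUMS (limma, adjusted p = 0.00212 and 0.0424). With the slide as a block the OVX differences were not called, and that of Slco1c1 was -0.075. In that setting 0 of the 17545 probes were called for the OVX difference. The CUMS difference of Slc2a1 was lost when 1 of 7 of the 48 arrays was left out (mPFC OVX replicate 1 and OVX+CUMS replicate 6, and blood CUMS replicates 2 and 5, OVX replicate 6 and OVX+CUMS replicates 4 and 6). That of Slco1c1 was lost with 1 of 24 left out (in mPFC control replicates 2, 4 and 5, CUMS replicates 1 and 2, OVX replicates 2, 4, 5 and 6 and OVX+CUMS replicates 1 and 5, and in blood control replicates 1, 3, 5 and 6, CUMS replicates 2, 5 and 6, OVX replicates 2, 5 and 6 and OVX+CUMS replicates 4, 5 and 6).

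Within groups, the genes of the barrier went up and down together from mouse to mouse in mPFC. With group means removed and the brightest probe of each gene, 41 of the 45 pairs had a positive correlation over 24 arrays, with a median r of 0.49, and 20 pairs, all positive, had a permutation p under 0.05 after adjustment over the 45. For comparison, the median r of single probes of these genes with all other detected probes lay between -0.11 and 0.04. Flt1 and Abcb1a had r = 0.87 (rho = 0.84, permutation p = 3e-05, adjusted p = 0.00045) and r = 0.80 without the 2 farthest arrays. Cldn5 and Flt1 had r = 0.79 (rho = 0.74, permutation p = 1e-05, the smallest that 100000 permutations can give, adjusted p = 0.00045) and r = 0.80 without the 2 farthest arrays. Arrays on 1 slide share their hybridisation, and with slide means removed as well, 16 pairs had an adjusted p under 0.05.

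Cldn5, Flt1, Ocln, Abcb1a and Tek each had 6 of 9 partners at an adjusted p under 0.05, Pecam1 had 4, Slco1c1 3, Slc2a1 2 and Tjp1 1. Slc2a1 and Ocln had r = 0.70 (rho = 0.45, permutation p = 0.00145, adjusted p = 0.0109), which fell to 0.42 without the 2 farthest arrays. The count of 20 pairs rested in part on single mice, since it was 9 without OVX replicate 1 and 12 without OVX+CUMS replicate 1. With scaling by the E1A spike-in probes the count was 43 and the median r 0.80. That setting shifts every probe of an array by the same spike-in value. The r with all other probes was not computed under it, so the count has no background to stand beside.

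Kdr stood with the other genes by 1 of its probes and apart from them by the other. By the brightest probe, A_55_P2094469, 0 of 9 partners passed, and r ran from -0.47 to 0.26 with a median of 0.01 (the unadjusted permutation p was under 0.05 for Tjp1 alone, with 0.0367). By A_51_P316553, 6 of 9 partners passed, with r = 0.86 for Flt1, 0.82 for Cldn5 and 0.76 for Abcb1a (permutation p = 4e-05, 2e-05 and 5e-05), and the number of pairs among the 10 genes was 30 of 45, all 45 positive. The values of both Kdr probes against each other had r = -0.02 in mPFC (rho = 0.04, permutation p = 0.916) and r = 0.07 in blood (rho = 0.23, permutation p = 0.765), where r was 0.43 without the 2 farthest arrays. The 2 detected Flt1 probes had r = 0.86 (rho = 0.78, permutation p = 1e-05, adjusted over 4 such relations 4e-05), and the 2 Slco1c1 probes r = 0.65 in mPFC (rho = 0.68, permutation p = 0.00188, adjusted p = 0.00376).

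**Figure D4:**
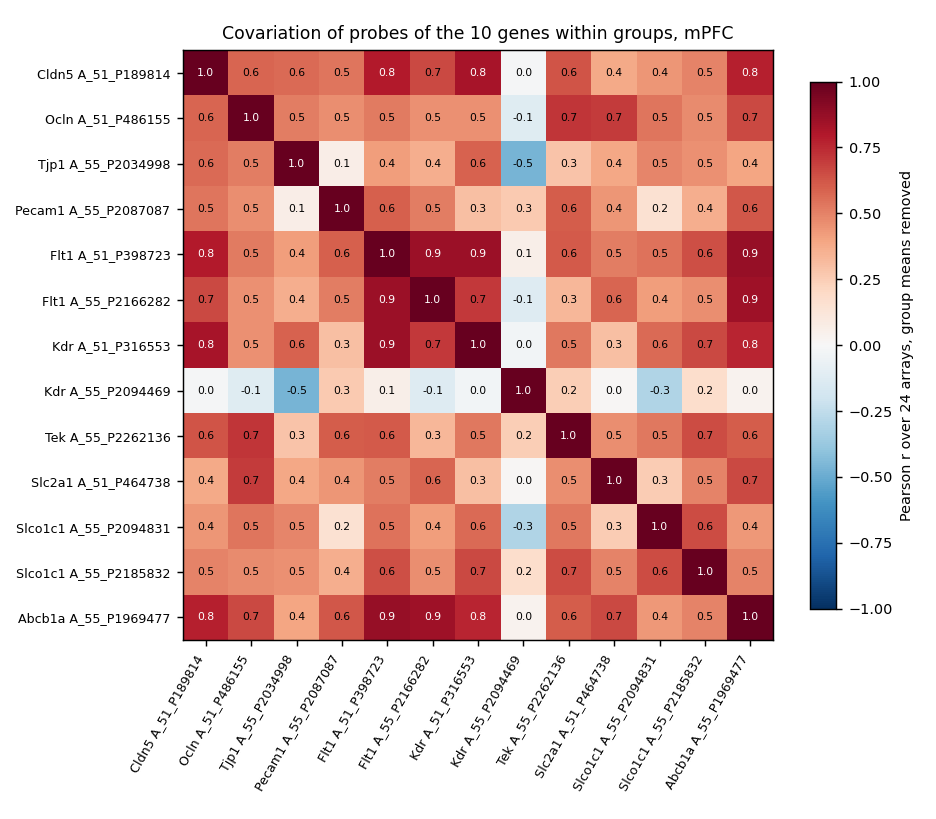
Pearson r over 24 mPFC arrays, group means removed, between the detected probes of the 10 genes (both axes, with the value in each cell). Most cells are positive, with r = 0.87 for Flt1 and Abcb1a, while the Kdr probe A_55_P2094469 stays between -0.47 and 0.26 against the brightest probes of the other genes.

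**Figure D5:**
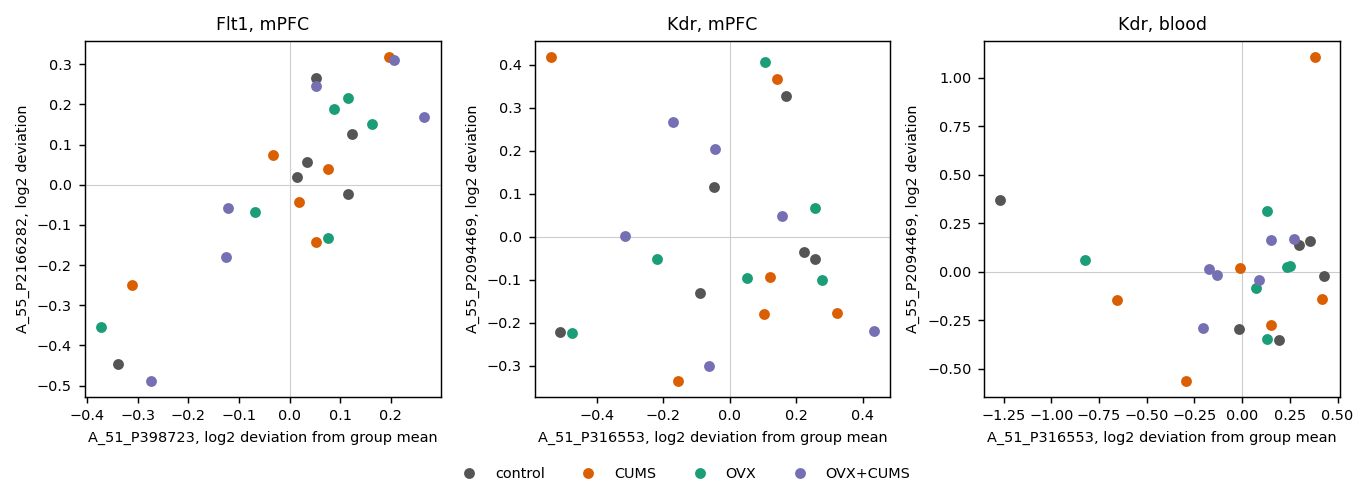
Deviation of each array from its group mean (log2) by 1 probe of a gene (x axis) against a second probe of the same gene (y axis), for Flt1 and Kdr in mPFC and Kdr in blood, coloured by group. The Flt1 points follow a line (r = 0.86) and the Kdr points in mPFC do not (r = -0.02).

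The genes whose levels were most like Cldn5 over the 24 mPFC arrays, by r with group means removed among 21191 detected probes of other named genes, were Itga1 (0.87), Mpzl1 (0.85), Col4a1 (0.84), a collagen of the basement membrane, Ptprb (0.83), the endothelial phosphatase that acts on Tek, and Elk3 (0.82). For the mean of the 10 genes they were Itga1 (0.92), St6galnac2 (0.87), Ltbp4 (0.87), Tmem140 (0.87) and Ptprb (0.86). Those nearest to the Kdr probe A_51_P316553 included Ptprb as well (0.79), after Cdkn2b, Slc16a4, Fmnl3 and Foxf2 (0.85 to 0.81).

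The Kdr probe A_55_P2094469 had other neighbours, among them Acox3 (0.98), Lepr (0.98), Dvl3 (0.97), Cyp17a1 (0.97) and Ptpn5 (0.96), with r above any value found for Cldn5. Ptpn5 was among the nearest in blood as well (0.99). Of the 50 probes nearest to it in mPFC, 34 (68%) held the word GCCCC, which 3.75% of the 28360 detected probes hold, and in blood 37 of 50 (74%) did, against 4.62% of 20768. The word was searched in the strand of the probe only. For the other probes in mPFC, the word of the probe most enriched among its 50 nearest was in 10% to 24% of them. The stretches around the word in 3 of its nearest probes in mPFC and 3 in blood are shown with that of Kdr, with the word in capitals.
Kdr A_55_P2094469: tgtcccggctccGCCCCcaactcctggaaa
Acox3 A_55_P1971574: agatgtcatcGCCCCctccgactttgttct
Dvl3 A_55_P2014978: cccccaggaGCCCCtccagggcgtgacctg
Cyp17a1 A_51_P116813: cggtgGCCCCcttgctcatcccacacaagg
Krtap16-4 A_55_P2151209: atggctacaggcGCCCCctttcctatgggg
Ptk7 A_51_P496381: gacacttatatgacccGCCCCttttgtacg
Myo18a A_55_P2170834: ctgagagatcccGCCCCtctttcttctctg

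The Slco1c1 probe A_55_P2094831 showed the like in blood only. There, 31 of the 50 nearest probes (62%) held GCCTG, which 8.32% of detected probes hold, with a median r of 0.92, and in mPFC the most enriched word of that probe, TGACA, was in 14% of the 50. The nearest in blood were Smok3b (0.96), Ccin (0.94), Coq7 (0.93) and Rtn4rl2 (0.93) among those with the word, again shown in capitals.
Slco1c1 A_55_P2094831: GCCTGctttgcttttgactctaagcataac
Smok3b A_55_P1972663: tGCCTGcccaagctcataatcagactcctc
Ccin A_51_P518893: tggactgtcctGCCTGctgtctagccaagc
Coq7 A_66_P137134: gcagtgaacataGCCTGcctgggcctcagt
Rtn4rl2 A_51_P359516: cctGCCTGgcaacattttccgaggcttggt

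Probes with these words also differed from the rest in the group effects. In blood, 52.9% of 960 probes with GCCCC were called lower after ovariectomy, against 26.5% of those without it, and the median OVX effects were -0.33 and 0.06. In mPFC the shares called lower were 26.5% of 1062 and 11.1%. Of 1728 probes with GCCTG in blood, 42.8% were called lower after ovariectomy and 34% higher after CUMS, against 26.3% and 17.7% without it. The Kdr probe A_51_P316553, which also holds GCCTG, was called for neither effect in blood (OVX -0.03, CUMS 0.30, limma, adjusted p = 0.897 and 0.145). Without the Kdr probe A_55_P2094469, 1 of 12 probes was called for OVX in mPFC, and without both probes 2 of 5 were called for OVX and 0 of 5 for CUMS in blood. What makes probes with a shared word vary together was not tested.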

How the data were processed

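RNA of the mPFC and blood of the same 24 mice was hybridised to 1-colour Agilent mouse arrays. Per the file headers, the authors extracted each spot's intensity with Feature Extraction 10.7.3.1, and the processed signal is background-subtracted. The authors also deposited a table of log2 values, normalized to the 75th percentile in GeneSpring GX 11.0.2, used here as an alternative (column medians -3.89 to -2.66).

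Here, log2 processed signal minus each array's 75th percentile was averaged over the spots of a probe, without control spots and outliers (98 to 206 spots per array). A probe was tested in a tissue if it was well above background on all 24 arrays and reached a signal of 50 on at least 2, and between tissues if it passed in either. Groups were compared with limma 3.58.1 in R 4.3.3 over all 4 groups of a tissue, with Benjamini-Hochberg adjustment over all tested probes and a threshold of 0.05. Differences between tissues were fitted over all 48 arrays, and the 2 arrays of a mouse were treated as independent. The mouse as a block was an alternative. Correlations used 100000 permutations. The code was tested on simulated data. Each mouse is 1 replicate. Of each list, tissue and effect, the genes of up to 3 called probes with the largest rise and up to 3 with the largest fall could be named, besides the 5 genes most like Cldn5 and the 5 most like the mean of the 10 genes. The neighbours of the Kdr and Slco1c1 probes were chosen after their values were seen.

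Alternatives were normexp background correction (offset 50), quantile scaling, the percentile over detected probes, E1A spike-in scaling, no filter, no moderation, slide and replicate blocks, and leaving out each array. Added after seeing the data were the removal of single probes, the second Kdr probe, the other settings for the correlations and the 5-base words. The genes and lists were chosen with earlier results of these data known. Arrays of different groups with the same replicate number did not deviate together by the median of 36 pairs per tissue. The median r was 0.04 in mPFC (range -0.23 to 0.391) and -0.09 in blood (range -0.508 to 0.488). Single pairs thus spread widely. The labels tie the arrays of 1 mouse across tissues. All 10 genes matched the RefSeq gene table.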

Additional observations from a re-analysis of the deposited data

Results flagged for a closer look

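Of 80 groups of 6 arrays examined, 9 had a highest or lowest array whose gap to the next, divided by the range of the group, was above the limit of 0.625. Chance alone gives about 1 in 20 such groups. In mPFC, control replicate 1 lay lowest for Flt1 by A_51_P398723 (0.762) and for Abcb1a (0.781), OVX replicate 1 lay lowest for Abcb1a (0.7) and CUMS replicate 2 lowest for Tjp1 (0.8). In blood, control replicate 2 (0.739) and OVX replicate 3 (0.833) lay lowest for the Kdr probe A_51_P316553, CUMS replicate 2 lay highest for the Kdr probe A_55_P2094469 (0.653), OVX+CUMS replicate 5 highest for Slc2a1 (0.648) and control replicate 2 highest for the Slco1c1 probe A_55_P2094831 (0.635).

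Effects that differed between the tissues, by limma's test of the difference, were those on Slc2a1, with mPFC minus blood -0.46 for OVX and 0.40 for CUMS, and on the Slco1c1 probe A_55_P2094831, with 0.65 for OVX and -0.39 for CUMS.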

How the results depend on the processing

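With the authors' log2 values, all 147 results for single probes kept their side of the threshold, and no called result changed direction. Those values come from the same percentile shift. For probes with 1 spot, 100% of them lay within 0.001 of the values used here, at most apart from a constant per array. The match is therefore no independent check of the processing. In mPFC, the 2 OVX calls became 1 with E1A spike-in scaling, without the filter, over the probes detected on all 48 arrays and without the Kdr probe A_55_P2094469, and 0 with the slide as a block. The genes had 15 probes tested without the filter and 7 over the probes detected on all 48 arrays, against 13 in the main setting. Over all probes, 2204 were called with E1A scaling, 7681 without the filter and 0 with the slide as a block, against 8778 in the main setting. They were 1 to 4 when single arrays were left out (4 without CUMS replicate 2). The probes specific to OVX+CUMS mice went from 0 to 1 with normexp. In blood, the 4 OVX calls among 7 probes became 7 among 15 without the filter, 0 with the slide as a block and 2 without the Kdr probe A_55_P2094469 and the Slco1c1 probe A_55_P2094831. They were 3 to 4 when single arrays were left out. Without the filter, 18294 of all 55681 probes were called, and probes above background on no blood array were tested too. With the slide as a block, 0 of the 20768 probes were called. The 1 CUMS call in blood became 3 with normexp and 0 with E1A scaling, without those 2 probes and within slide 1 or slide 3, and was 1 to 2 when single arrays were left out (2 without OVX+CUMS replicate 5). Over all probes, 3420 were called with E1A scaling and 0 within slide 1 or slide 3, against 10075 in the main setting. The interaction in blood went from 0 to 1 with normexp, which called 1081 over all probes against 294. It was 0 to 1 when single arrays were left out (1 without CUMS replicate 2). The causes were not tested.

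Between the tissues, the 12 probes that differed were 6 over the probes detected on all 48 arrays, which leaves fewer probes tested, and 12 with the mouse as a block. The 2 differing OVX effects among 7 probes were 1 with normexp, 4 with quantile scaling, 4 among 15 without the filter and 0 with the slide as a block. They were 3 with the mouse as a block, and 2 to 3 with single arrays left out. The 2 differing CUMS effects were 0 with E1A scaling, 0 among 15 without the filter and 2 with the mouse as a block. They were 0 to 3 with single arrays left out (0 without blood CUMS replicate 2 or 5, OVX replicate 6 or OVX+CUMS replicate 4 or 6). Of the 17545 probes, 0 were called for OVX with the slide as a block and 0 for CUMS with E1A scaling. Directions turned for mPFC minus blood with normexp for Ocln A_51_P486155 (-0.76) and Tek (-0.14), for Slco1c1 A_55_P2094831 with normexp (0.12), E1A scaling (1.68) and no scaling (2.35), and for its OVX effect between tissues with the slide as a block (-0.075). The 20 correlated pairs became 43 with E1A scaling, for which no r over all probes was computed. They were 9 to 24 with single arrays left out (9 without OVX replicate 1).

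With the replicate number as a block, though the numbers do not pair the mice, the OVX calls in mPFC went from 2 to 1 and the CUMS calls from 0 to 1 (Flt1 A_55_P2166282, 0.22, limma adjusted p = 0.0428).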

Other observations

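Among markers of other cells in mPFC, 9 of 12 microglia probes, of 7 genes, were called after ovariectomy, 8 of them higher. The lower one was the Csf1r probe A_55_P2025073 (-0.15), while the Csf1r probes A_55_P2025078 and A_52_P602091 were higher (0.13 and 0.14). The summed microglia level had medians of 131.1 in control, 131.8 in CUMS, 132.4 in OVX and 135.4 in OVX+CUMS mice, with overlap throughout. Itgam, an integrin of microglia and myeloid cells, was higher by 0.40 ± 0.07 (SE, log2 scale) and Cx3cr1, the fractalkine receptor, by 0.22 ± 0.05 and 0.19 ± 0.05 by 2 of its probes (limma, adjusted p = 0.000398, 0.00386 and 0.00869). Of the monocyte list, which shares Csf1r with the microglia list, 4 of 6 probes were called, 3 of them higher, with Cd14 at 0.29 ± 0.07. These counts stand beside the 31% called over all probes. After CUMS, 0 of 12 microglia probes and 0 of 14 astrocyte probes were called by limma, beside 4.21% of all probes. The slide moves with ovariectomy, and with the slide as a block 0 of the 28360 mPFC probes were called for OVX. None of the microglia and monocyte calls stood with that block. Slide and ovariectomy can be told apart only in part.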
